A study of Mus musculus with 6 samples.

Results

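Ribosomal protein genes were taken from the count table by gene symbol: large subunit genes beginning Rpl, small subunit genes beginning Rps, and Rpsa, without names ending in ps and digits. This gave 86 of 25239 rows, 53 for the large subunit and 33 for the small. The 6 libraries hold messenger RNA of mouse yolk sacs at embryonic day 9.5. The 3 libraries labelled DKO came from embryos of mixed background that were Cdx1-/- and Cdx2fl/fl, carried Actin::CreERT, a Cre recombinase that an actin promoter drives and tamoxifen switches on, and were exposed to tamoxifen at embryonic day 5.5. The 3 libraries labelled WT came from CD1 embryos with no treatment. Genotype, strain and tamoxifen differed together, so their parts in any difference cannot be told apart. Neither pooling of yolk sacs nor the litter of each sample is stated in the labels, so the spread behind each p-value is that between these samples alone and may be technical.

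A ribosome is built from ribosomal RNA and one copy of most ribosomal proteins in each subunit, so the messages of these genes are usually kept at matched levels. Most of them begin with a 5′ terminal oligopyrimidine (TOP) tract, through which the kinase mTOR and the RNA-binding protein Larp1 control their translation. In the yolk sac, ribosomes serve both the visceral endoderm, which secretes large amounts of plasma protein, and the primitive red cells, which fill with globin. Mammalian genomes also carry many processed copies of ribosomal protein genes, and short reads from a gene and from its copies can be identical.

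Library totals were 24242663, 39014098 and 56732836 counts in libraries 1, 2 and 3 labelled DKO, against 26855337, 20532298 and 20040601 counts in WT libraries 1, 2 and 3. Levels are counts divided by library size after trimmed-mean scaling and put on a common scale (CPM). Neither targeted gene separated the groups as the label would. For Cdx2 the 3 libraries labelled DKO had 23.0, 24.1 and 25.7 CPM, against 16.6, 18.9 and 20.4 CPM in WT (adjusted p 0.449, edgeR). Cdx1 had 10, 14 and 14 counts in DKO and 0, 1 and 8 in WT. Counts cover whole genes and do not show whether a deleted exon was read, so each direction below is that of the labels. Those labelled DKO stood apart from each other: chi-square per degree of freedom over genes was 92.1 to 294 between them and 11.9 to 16.1 between WT libraries. This statistic rises with depth for the same proportional difference, and libraries 2 and 3 labelled DKO were deeper than any WT library. The part of depth was not separated. Afp, a major secreted protein of the visceral endoderm, took 0.226%, 1.15% and 3.04% of counts in the libraries labelled DKO and 0.989%, 0.68% and 0.79% in WT. Results on ribosomal protein genes that move when a library is left out are given with and without it.

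The sequences below show what 50-base single-end reads could and could not separate, for the 3 genes that were higher in every library labelled DKO. They are coding bases of GENCODE M21 transcripts (GRCm38, the assembly mm10 names), 5′ to 3′ on the coding strand. For Rpl21 (chromosome 5, 146832890 to 146837032) and Rps2 (chromosome 17, 24718121 to 24721927), each has the 50-base stretch held by the most other annotated genes and one held by the fewest. The Rpl21 stretches cover coding bases 96 to 145, held by 44 other genes, and 300 to 349, held by 1. The Rps2 stretches cover coding bases 653 to 702, held by 33 other genes, and 11 to 60, held by 0. For Rpl10l (chromosome 12, 66283379 to 66284401) and the X-linked gene it resembles, Rpl10, the first 60 coding bases are aligned, and capitals mark the 9 positions where they differ.
Rpl21 96 to 145: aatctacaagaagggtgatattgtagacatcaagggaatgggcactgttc
Rpl21 300 to 349: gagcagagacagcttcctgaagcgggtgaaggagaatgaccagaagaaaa
Rps2 653 to 702: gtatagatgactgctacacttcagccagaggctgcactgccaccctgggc
Rps2 11 to 60: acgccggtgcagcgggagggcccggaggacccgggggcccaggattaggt
Rpl10l: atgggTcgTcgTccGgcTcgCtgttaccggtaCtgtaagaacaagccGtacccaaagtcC
Rpl10: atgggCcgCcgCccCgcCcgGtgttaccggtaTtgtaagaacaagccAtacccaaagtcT

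Summed by library, ribosomal protein genes held shares of all counts that overlapped between the groups. The share was 4.78%, 4.05% and 3.39% in libraries 1, 2 and 3 labelled DKO, against 3.94%, 3.94% and 4.47% in WT libraries 1, 2 and 3. The highest and the lowest share of the 6 were both in libraries labelled DKO, and the group means were 4.08% ± 0.695 in DKO and 4.12% ± 0.306 in WT (SD, n = 3 each). The difference of the means, DKO minus WT, was -0.396 percentage points without library 1 labelled DKO and 0.299 points without library 3. In bulk tissue, fewer cells of a type and less RNA per cell cannot be told apart.

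Large and small subunit genes kept their proportion in every library. Large subunit genes took 2.91%, 2.49% and 2.06% of counts in the libraries labelled DKO and 2.39%, 2.41% and 2.74% in WT. Small subunit genes took 1.87%, 1.56% and 1.33% in the libraries labelled DKO and 1.54%, 1.53% and 1.73% in WT. In both subunits library 1 labelled DKO was the highest of the 6 and library 3 labelled DKO the lowest. The ratio of large to small was 1.55, 1.6 and 1.55 in the libraries labelled DKO, against 1.55, 1.58 and 1.58 in WT, so the groups overlapped (1.56 ± 0.0269 in DKO, 1.57 ± 0.0161 in WT).

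**Figure D1:**
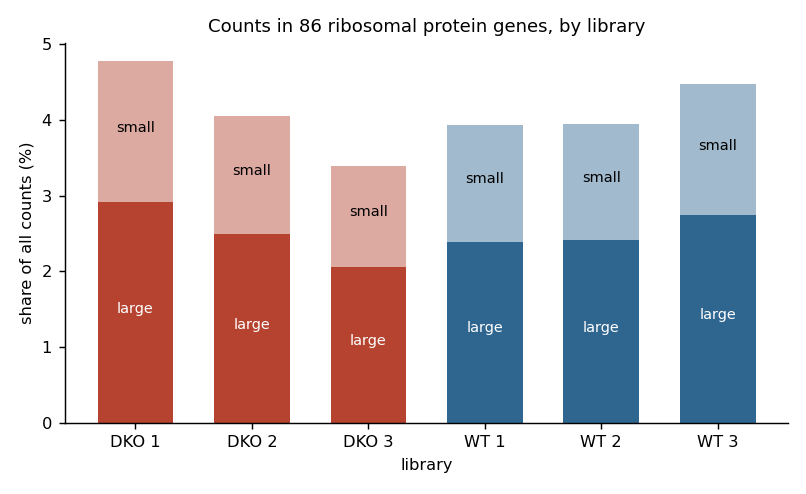
Share of all counts (%) in the 86 ribosomal protein genes, 1 bar per library, with large subunit genes in the darker lower part and small subunit genes in the paler upper part; red bars are libraries labelled DKO and blue bars WT. The bars reach 4.78%, 4.05% and 3.39% in DKO and 3.94%, 3.94% and 4.47% in WT, with the 2 parts in nearly the same proportion throughout.

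Gene by gene, 83 of the 86 passed the filter on low counts, and Rpl26, Rpl39l and Rpl3l did not. Rpl10l passed only through the libraries labelled DKO and Rpl30 only through WT. Of the 83, 1 was higher in the libraries labelled DKO past an adjusted p of 0.05 by edgeR, which is Rpl21, beside 0.0143% of all 14002 genes tested. None was lower by edgeR, DESeq2 or limma-voom, beside 0.0214% of all genes by edgeR and 0.829% by DESeq2. DESeq2 called 3 higher, Rpl21, Rps2 and Rpl10l, beside 1.23% of all genes. At an unadjusted p under 0.05, 3 members were higher and 1 lower, beside 5.55% and 3.54% of all genes. The groups did not overlap in 3 members that were higher, Rpl21, Rps2 and Rpl10l, and in 1 that was lower, Rpl30, beside 7.94% and 7.61% of all genes. These counts of members without overlap are below the background shares.

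The typical member had a fold change near 0. The median log2 fold change, DKO minus WT, was -0.02 over 50 large subunit genes, of which 19 were positive and 31 negative. Over 33 small subunit genes it was 0, with 17 positive and 16 negative. The middle 50% of all 83 lay between -0.06 and 0.02, whereas that of all genes tested lay between -0.15 and 0.22 around a median of 0.01, with 7270 positive and 6732 negative. This narrower range is a description, with no test. Most members are abundant, whereas all genes tested reach down to the filter on low counts. No genes of like level were set beside the members.

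Rpl21, a protein of the large subunit, rose in the libraries labelled DKO. It had 3618, 5342 and 5940 counts in libraries 1, 2 and 3 labelled DKO, against 115, 82 and 55 counts in WT libraries 1, 2 and 3. In CPM these are 147, 137 and 108 in DKO and 4.27, 3.98 and 2.73 in WT. The lowest library labelled DKO lay far above the highest WT library. Its log2 fold change was 5.15 (SE 0.23, adjusted p 0.0026, edgeR). Without WT library 2 it was 5.21 and its adjusted p by edgeR was 0.0721, above the threshold. Over the 6 fits with 1 library left out it ran from 4.97 to 5.28. Rpl21 had been singled out with earlier results of these data known, so its call is no independent support.

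In WT, Rpl21 lay well below the usual level of its subunit. Per kb of coding sequence it averaged 273 CPM in the libraries labelled DKO and 7.63 CPM in WT, while the median large subunit gene stood at 977 CPM per kb in DKO and 988 CPM per kb in WT. Against the median member of each library, Rpl21 was 5.15 higher on the log2 scale in DKO than in WT, the same as its fold change above. All of its 431 coding 50-base stretches also lie in at least 1 of 82 other annotated genes, 81 of them pseudogenes, as the pair of stretches printed above shows. Of stretches over its whole transcript of 1856 bases, 26.2% were shared. Where transcripts had equal coding length the longest was used, so this share may depend on the transcript chosen. How reads with several matches were treated is not given in the sources used here, so the level of Rpl21 in either group is uncertain.

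Genes beside Rpl21 were set against it. Usp12, a ubiquitin-specific protease gene 37.9 kb away, had 88.0, 66.9 and 60.9 CPM in the libraries labelled DKO and 81.0, 89.8 and 79.1 CPM in WT (log2 fold change -0.21, adjusted p 0.684, edgeR). Rasl11a, a Ras-like gene 8.0 kb away on the other side, stood at 1.05, 0.129 and 0.416 CPM in DKO and 0.446, 0.437 and 0.844 CPM in WT (-0.16, adjusted p 0.942, edgeR). Both overlapped between the groups. Cdx2 lies 463.9 kb from Rpl21 on the same chromosome. Among rows that carry Rpl21 sequence, BC004004, a gene that holds 53.6% of its coding stretches, had 876, 1733 and 2969 counts in DKO and 938, 676 and 706 in WT. Its log2 fold change was 0.38 (adjusted p 0.549, edgeR). No row was named as an Rpl21 pseudogene.

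**Figure D2:**
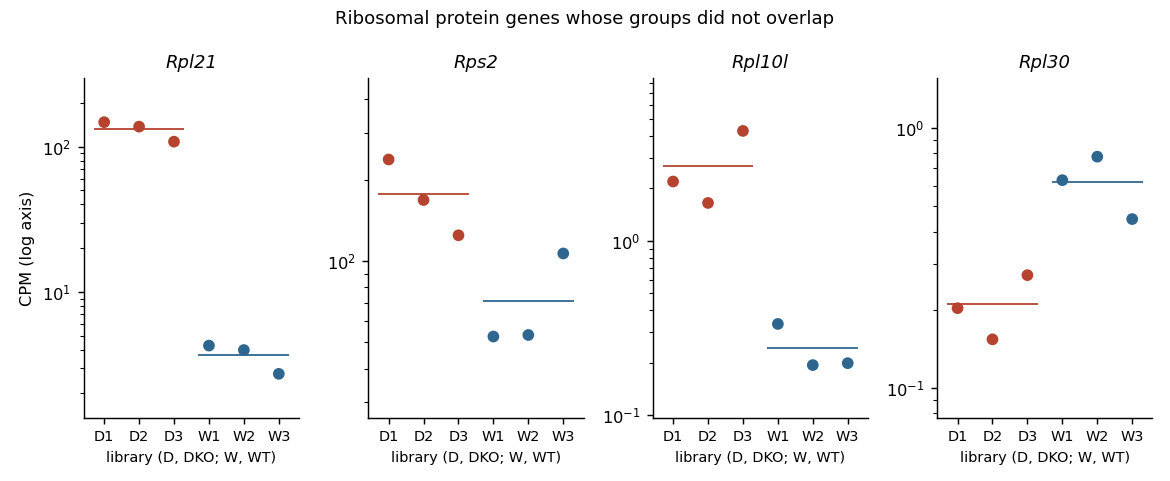
Levels in CPM (log axes with their own ranges) of Rpl21, Rps2, Rpl10l and Rpl30, 1 point per library, with libraries labelled DKO (D1 to D3, red) left of WT (W1 to W3, blue) and a line at each group mean. Rpl21 stands at 108 to 147 CPM in DKO and 2.73 to 4.27 CPM in WT; Rps2 and Rpl10l are also higher in all 3 libraries labelled DKO, and Rpl30 is lower in all 3.

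Rps2, a protein at the messenger RNA entry side of the small subunit, had 239, 169 and 125 CPM in libraries 1, 2 and 3 labelled DKO, against 52.6, 53.3 and 107 CPM in WT libraries 1, 2 and 3. The groups did not overlap, but WT library 3 lay close to library 3 labelled DKO. Its log2 fold change of 1.33 (SE 0.36) had an adjusted p of 0.369 by edgeR and of 0.018 by DESeq2. Of its coding stretches 84.1% were held by other genes, 71 in all, each annotated as a pseudogene. Its 5′ coding end, printed above, was held by no other gene.

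Rpl10l is a retrogene that in mouse takes the place of X-linked Rpl10 in male germ cells during meiosis. It had 54, 64 and 236 counts in libraries 1, 2 and 3 labelled DKO, against 9, 4 and 4 counts in WT. In CPM it was 2.19, 1.65 and 4.27 in DKO and 0.334, 0.194 and 0.199 in WT, with 3 counts equal to 0.0529 to 0.124 CPM in DKO libraries and 0.112 to 0.15 CPM in WT. Its adjusted p was 0.138 by edgeR and 2.12e-05 by DESeq2, at a log2 fold change of 3.44 (SE 0.51). Without library 1 labelled DKO it was 3.56 and passed, with an adjusted p of 0.0365 by edgeR. That fit called 634 genes, against 5 with all libraries. Rpl10l had an unadjusted p of 0.000436 in it, against 0.000347 with all libraries (edgeR). Its parent Rpl10 stood at 725, 630 and 526 CPM in DKO and 589, 577 and 650 CPM in WT (log2 fold change 0.05, adjusted p 0.901, edgeR). The 2 coding sequences, each of 642 bases, differ at 98 positions (84.7% identity), and 12.5% of Rpl10l stretches were held by another gene. Rpl10l thus stayed below 1% of the summed counts of the pair in every library, at 0.301%, 0.261% and 0.805% in DKO and 0.0567%, 0.0337% and 0.0306% in WT.

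Rpl30, a large subunit protein, was the member whose libraries labelled DKO all lay below WT. It had only 5, 6 and 15 counts in DKO and 17, 16 and 9 counts in WT, or 0.203, 0.154 and 0.272 CPM and 0.631, 0.777 and 0.447 CPM. Its log2 fold change of -1.52 (SE 0.4) had an adjusted p of 0.365 by edgeR. At these counts a single read moves the value, and 83.1% of Rpl30 stretches lie in other genes. Gm7429, a row holding 37.5% of them, had 3287, 3840 and 4564 counts in DKO and 2118, 1902 and 2047 in WT (log2 fold change 0.21, adjusted p 0.738, edgeR). Gm5481, a row holding 6.8%, had 639, 635 and 877 counts in DKO and 14, 97 and 189 in WT. Its log2 fold change was 2.0 (SE 0.83, adjusted p 0.549, edgeR). Both rows were named after their values were seen.

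The remaining abundant members moved as a block by library. A mean of at least 50 CPM was reached by 78 members, with means of 67.1 to 1710 CPM and a median of 484 CPM. Without Rpl21 and Rps2, a choice made after their values were seen, 76 remained. Their log2 fold changes ran from -0.15 to 0.34 with SE of 0.09 to 0.29, the lowest adjusted p was 0.579 (edgeR), and all 76 overlapped between the groups. Set against its own WT mean, each of the 76 was higher in library 1 labelled DKO, by 0.05 to 0.62 on the log2 scale. In library 2 labelled DKO 21 were above and 51 below the WT mean, the others being equal to it at 2 decimals, and in library 3 labelled DKO 5 were above and 71 below, with values of -0.54 to 0.66. In 70 of the 76 the levels fell in the order library 1, 2, 3 labelled DKO, and in 74 WT library 3 was the highest of WT.

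The order was not particular to a subunit. Over all 83 tested members it was seen in 74, in 47 of 50 large and 27 of 33 small subunit genes, beside 32.3% of all genes. Library 1 labelled DKO was the highest of the 6 in 64 members, beside 24.9% of all genes, and library 3 labelled DKO was the lowest of the 6 in 64, beside 33.2%. Median differences from the WT mean were 0.17, -0.02 and -0.23 (log2) in libraries 1, 2 and 3 labelled DKO for large subunit genes. For small subunit genes they were 0.18, -0.03 and -0.23. Over all genes they were 0.01, 0 and 0.01, but trimmed-mean scaling brings these close to 0, so they are a reference level and no separate result. As members share their libraries, they are not independent observations of this order. Without library 1 labelled DKO the median log2 fold change of the 83 was -0.13, with 73 negative. Without library 3 labelled DKO it was 0.07, with 76 positive. It also moved with WT libraries: without WT library 3 it was 0.05, with 60 positive. Without WT library 1 it was -0.06, with 66 negative, and without WT library 2 it was -0.04, with 65 negative.

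**Figure D3:**
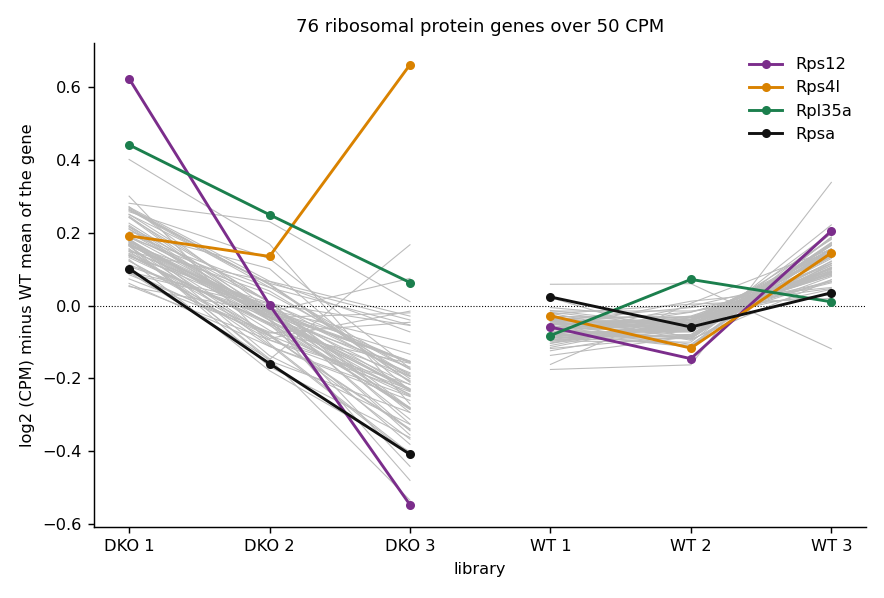
Level of each of 76 ribosomal protein genes of at least 50 CPM, without Rpl21 and Rps2, as log2 CPM minus the mean of the gene in WT, by library, with libraries labelled DKO on the left; each line joins the values of 1 gene within a group, and 4 genes are coloured. Nearly all lines lie above 0 in DKO 1 and below 0 in DKO 3; Rps4l departs upward in DKO 3 by 0.66, and Rps12 has the widest span of the 76, from 0.62 in DKO 1 to -0.54 in DKO 3.

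Markers of cell types moved across the same libraries. Summed over 10 of 10 erythroid markers, none of them at 0, levels were 8020, 10300 and 2780 CPM in libraries 1, 2 and 3 labelled DKO and 13700, 8780 and 12000 CPM in WT. Summed over the 11 visceral endoderm markers in the table, none at 0, they were 19500, 37400 and 58400 CPM in DKO and 35200, 31900 and 29400 CPM in WT. The endoderm sum follows Afp, at 2220, 11500 and 31200 CPM in DKO and 9860, 6790 and 7870 CPM in WT. Most other endoderm markers also rose in that order in DKO. Trf had 773, 2050 and 4020 CPM in DKO and 1430, 1220 and 1240 CPM in WT. Apoa1, Foxa3, Rbp4, Ttr, Amn, Hnf4a and Apom had the same order in DKO. Only Cubn and Apob did not. Cubn had 4430, 5300 and 4310 CPM in DKO and 5890, 6730 and 4720 CPM in WT. Apob had 5610, 7740 and 6920 CPM in DKO and 9380, 9440 and 7030 CPM in WT. Mesoderm and mesothelium markers (11 of 12 above 0, Msln at 0) summed to 2260, 7230 and 8490 CPM in DKO and 2920 to 5210 CPM in WT, mostly from collagens such as Col1a1 with 684, 3240 and 3620 CPM in DKO and 2530, 1290 and 1050 CPM in WT. Hand1, a mesoderm transcription factor, had the other order, with 237, 114 and 59.7 CPM in DKO and 118, 130 and 116 CPM in WT, as did Pdgfra, with 92.9, 89.4 and 24.5 CPM in DKO and 42.5, 53.6 and 55.4 CPM in WT. Endothelial markers summed to between 369 and 560 CPM in DKO and 430 and 526 CPM in WT. Macrophage markers summed to 65, 106 and 156 CPM in libraries 1, 2 and 3 labelled DKO and to between 62.9 and 82.8 CPM in WT. Mrc1 made up most of this sum in each library but library 3 labelled DKO. It had 61.9, 91.4 and 65.9 CPM in DKO and 75, 67.4 and 59.1 CPM in WT. Each other macrophage marker was highest in library 3 labelled DKO. Csf1r had 2.51, 10.6 and 67.1 CPM in DKO and 4.9, 4.28 and 2.28 CPM in WT. No endothelial marker was at 0 in a library, but 4 of the 8 macrophage markers, Adgre1, C1qa, Fcgr1 and Cx3cr1, were at 0 in library 1 labelled DKO, and Adgre1, C1qa, C1qb or Fcgr1 in WT library 2 or 3. Trophoblast markers, with Ctsq at 0, summed to 57, 12.9 and 306 CPM in DKO, against 12.3 to 34.8 CPM in WT, and embryo proper markers, with Myog at 0, stayed at 1.76 to 5.07 CPM in DKO and 1.41 to 5.86 CPM in WT. The part of cell make-up in the order of ribosomal protein levels was not tested.

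Members kept their levels relative to each other. After the median member of each library was subtracted, 78 of 83 tested members differed by less than 0.25 (log2) between the groups, and the median absolute difference was 0.07. The range over the 6 libraries had a median of 0.18, and it was over 1 in 7 members: Rpl21, Rps2, Rpl10l, Rpl30, Rpl34, Rps27 and Rpl29. Of the 76 abundant members, 6 did not follow the common order of the libraries labelled DKO. Among them were Rpl41, Rps14, Rps21, Rps27l and Rps4l, named after their values were seen. Rps21, a small subunit protein, stood at 255, 243 and 259 CPM in DKO and 233, 228 and 280 CPM in WT, so that its groups overlapped with little spread in DKO.

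Proteins of the stalk, through which elongation factors dock on the large subunit, followed the block. Rplp0 had 2040, 1710 and 1260 CPM in libraries 1, 2 and 3 labelled DKO, against 1690, 1680 and 1910 CPM in WT (log2 fold change -0.07, adjusted p 0.893, edgeR). Rplp1 had 1070, 911 and 672 CPM in DKO and 796, 747 and 895 CPM in WT (0.12, adjusted p 0.825, edgeR). Rplp2 had 446, 386 and 339 CPM in DKO and 372, 373 and 451 CPM in WT (-0.03, adjusted p 0.941, edgeR). In each of the 3, DKO libraries 1 and 3 lay on either side of WT libraries 1 and 2.

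Small subunit members known for roles in signalling or disease also followed the block. Rpsa, also known as the laminin receptor precursor, had 1330, 1110 and 934 CPM in DKO and 1260, 1190 and 1270 CPM in WT (log2 fold change -0.14, adjusted p 0.76, edgeR). Rps6, the substrate of S6 kinase, had 939, 772 and 639 CPM in DKO and 737, 758 and 843 CPM in WT (0.01, adjusted p 0.989, edgeR). Rps19, whose human counterpart is the gene most often mutated in Diamond-Blackfan anaemia, had 411, 357 and 310 CPM in DKO and 342, 347 and 405 CPM in WT (-0.02, adjusted p 0.958, edgeR). In each of them library 1 labelled DKO was the highest of the 6 and library 3 labelled DKO the lowest.

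Rpl5 and Rpl11, which with 5S ribosomal RNA bind Mdm2 and hold it from p53, overlapped between the groups. Rpl5 had 1100, 953 and 837 CPM in DKO and 942, 945 and 1010 CPM in WT (log2 fold change 0, SE 0.13, adjusted p 1, edgeR). Rpl11 had 674, 591 and 517 CPM in DKO and 591, 595 and 652 CPM in WT (-0.04, SE 0.12, adjusted p 0.904, edgeR). Rpl35a, a further Diamond-Blackfan anaemia gene in human, had 217, 190 and 167 CPM in DKO and 151, 168 and 161 CPM in WT. Its log2 fold change of 0.26 (SE 0.12) had the smallest adjusted p of the 76, 0.579 by edgeR, and library 3 labelled DKO lay within the WT range.

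Rps12, named after its values were seen, had the widest span over libraries of the 76 abundant members. It had 632, 411 and 281 CPM in DKO libraries 1, 2 and 3, against 394, 371 and 473 CPM in WT (log2 fold change 0.1, SE 0.29, adjusted p 0.909, edgeR). Its highest and lowest libraries were both labelled DKO, and its fold change ran from -0.26 to 0.33 as single libraries were left out.

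Members that have a close paralog were compared as shares of the pair, which cancels the level of the library. Of 8 pairs, 4 had at least 10 counts of both genes in every library. Rpl7l1 took 15.5%, 14.1% and 15% of the Rpl7 pair in DKO and 15.5%, 15.9% and 15.1% in WT. Rpl36al took 41.3%, 41% and 42.4% of the Rpl36a pair in DKO and 42.2%, 42.4% and 42.3% in WT, and Rpl22l1 took 26.4%, 24.3% and 21.3% of the Rpl22 pair in DKO and 26%, 26.6% and 22.5% in WT. All 3 pairs overlapped between the groups. Rps4l, a row that RefSeq annotates as a transcribed pseudogene, took 14.3%, 15.7% and 26.2% of the Rps4x pair in DKO and 14%, 13.6% and 15.1% in WT. Only library 3 labelled DKO stood out there.

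Differences of the log2 ratio, DKO minus WT, were -0.07 for Rpl7l1, -0.04 for Rpl36al, -0.08 for Rpl22l1 and 0.43 for Rps4l. Two-sided exact permutation tests gave p of 0.2, 0.4, 0.6 and 0.2 in that order, and 0.4, 0.533, 0.6 and 0.4 after Benjamini-Hochberg adjustment over the 4 pairs. The smallest p that 3 against 3 libraries allow is 0.1. Without library 3 labelled DKO the difference for Rps4l was 0.09. The level of Rps4l itself was 156, 150 and 216 CPM in DKO and 134, 126 and 151 CPM in WT (log2 fold change 0.34, SE 0.16, adjusted p 0.594, edgeR).

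The other 4 pairs had a member near 0. Rpl3l, a paralog of Rpl3 known from skeletal muscle and heart, had 1, 3 and 6 counts in DKO and 2, 1 and 0 in WT. Rpl39l, a paralog of Rpl39 known from the male germ line, had 5, 8 and 4 counts in DKO and 7, 3 and 4 in WT. Neither had a coding stretch in common with another gene. Rpl10l is given above. In the fourth pair the named parent was the low one: Rps27 had 16, 10 and 15 counts in DKO and 10, 10 and 8 in WT, while its paralog Rps27l, described as a p53 target, had 2386, 3187 and 5656 counts in DKO and 2407, 1874 and 1854 in WT.

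Levels within the family were compared per kb of coding sequence, for 81 tested members with a coding sequence. The median member stood at 1020 CPM per kb over all libraries. Large subunit genes had medians of 977 CPM per kb in DKO and 988 CPM per kb in WT (49 genes), and small subunit genes of 1090 CPM per kb in DKO and 1040 CPM per kb in WT (32 genes). The 5 highest were Rpl41 at 8710 and 8850, Rplp1 at 2590 and 2370, Rplp0 at 1760 and 1850, Rps16 at 1450 and 1490 and Rpl23 at 1400 and 1450 CPM per kb, DKO mean before WT mean. Rpl41 encodes a very short basic peptide, and reads in untranslated parts count toward a level that is divided by coding length alone. The 5 lowest were Rpl30, Rps27, Rpl10l, Rpl34 and Rpl29, with means of 0.609, 1.56, 4.21, 3.02 and 37.5 CPM per kb in DKO and 1.79, 1.66, 0.377, 2.51 and 40.6 CPM per kb in WT.

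Several of the low members are genes that every cell needs, and their low counts are therefore given only as listed in the table. A mean under 50 CPM was found in 8 members: the 5 lowest per kb, Rpl3l and Rpl39l, and Rpl26, which was listed at 0 in all 6 libraries. Rpl34 had 50, 24 and 30 counts in DKO and 14, 10 and 33 in WT, with no clear order. Rpl29 had 685, 591 and 607 counts in DKO and 393, 307 and 581 in WT, or 27.8, 15.2 and 11.0 CPM and 14.6, 14.9 and 28.9 CPM. In CPM, library 1 labelled DKO and WT library 3 were the 2 highest for both genes.

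Shared sequence was common across the family. Of 84 members with a coding sequence in GENCODE M21, 30 had every 50-base coding stretch in at least 1 other annotated gene, 15 had under 50% and 3 had none, Rpl3l and Rpl39l among them. The median share was 90.8%, with a median of 9 other genes. Rpl21 was among the 30, and no other of them was called. The 8 members under 50 CPM lay across the range, with shares of 100% in Rps27, 90.3% in Rpl29, 87.3% in Rpl26, 83.1% in Rpl30, 72.2% in Rpl34, 12.5% in Rpl10l and 0% in Rpl3l and Rpl39l. The part of shared sequence in the levels was not tested.

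**Figure D4:**
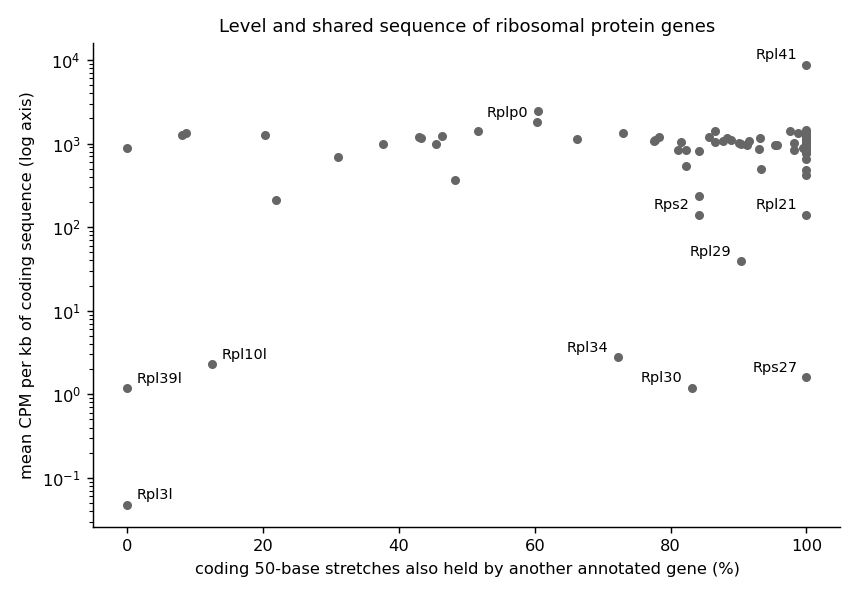
Mean level over the 6 libraries (CPM per kb of coding sequence, log axis) of 83 ribosomal protein genes against the share (%) of their 50-base coding stretches that another annotated gene also holds; each point is 1 gene and the extremes are named. Most members lie near the median of 1020 CPM per kb. Rpl30, Rpl34 and Rps27 lie low at shares of 83.1%, 72.2% and 100%, and Rpl10l, Rpl39l and Rpl3l at 12.5%, 0% and 0%; Rpl26, listed at 0, is not drawn.

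Rows for copies were read beside their genes. The table held 15 rows, other than members, with at least 50% of the coding stretches of a member, and 4 of them had no count in any library: Gm15772, a copy of Rpl26; Gm12191, of Rpl30; Rpl34-ps1, of Rpl34; and Rps27rt, of Rps27. The 4 members they match are among the 8 under 50 CPM. The rows with counts ranged widely against their members. At the high end, Rps6-ps4 had 98.9% of the counts of Rps6, Gm5148 93.4% of Rps23, Rpl14-ps1 91.5% of Rpl14 and Uimc1 91.1% of Rpl29. In between, Rpl37rt had 72.1% of Rpl37, Rpl31-ps12 70.0% of Rpl31, Gm15421 68.9% of Rpl22l1 and Rps15a-ps6 43.8% of Rps15a. At the low end, Wdr89 had 3.03% of the counts of Rplp2. Uimc1 and Wdr89 carry gene names of their own, so their counts may include reads from sequence that the member lacks. Whether these reads were counted for both rows was not tested.

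The wider machinery was described from lists, by counts and medians. Translation factors with 5′ TOP messages had library medians close to those of the ribosomal proteins: of 16 tested, 8 were positive and 8 negative, the median log2 fold change was -0.02, and medians against the WT mean were 0.18, -0.02 and -0.25 in libraries 1, 2 and 3 labelled DKO. Eef1a1, the factor that brings aminoacyl-tRNA to the ribosome, had 8110, 7620 and 6810 CPM in DKO and 7170, 6910 and 7570 CPM in WT. Pabpc1, the poly(A)-binding protein, had 2210, 1610 and 983 CPM in DKO and 1810, 1910 and 1890 CPM in WT (log2 fold change -0.22, adjusted p 0.793, edgeR). Fau, a ribosomal protein made as a fusion with a ubiquitin-like protein, stood at 713, 637 and 667 CPM in DKO and at 578, 589 and 700 CPM in WT. Rack1, a small subunit protein with a signalling role, had 1060, 966 and 763 CPM in DKO and 931, 929 and 1050 CPM in WT.

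Nucleolar factors that assemble ribosomes had library medians farther apart than those of the proteins they assemble, a comparison with no test. Of 69 tested, 8 were positive and 61 negative, with a median log2 fold change of -0.21. Medians against the WT mean were 0.26, -0.36 and -0.65 in libraries 1, 2 and 3 labelled DKO; library 1 was the highest of the 6 in 60 of them and library 3 the lowest in 65. None passed by edgeR, DESeq2 or limma-voom. At an unadjusted p under 0.05 by edgeR there were 0, beside 5.55% of all genes higher and 3.54% lower. Npm1, a chaperone of the nucleolus, had 1950, 1250 and 788 CPM in DKO and 1370, 1580 and 1640 CPM in WT (-0.2, SE 0.31, adjusted p 0.832, edgeR). By p the first 3 were Sbds (0.25, adjusted p 0.634), Ddx51 (-0.35, 0.637) and Tsr1 (-0.28, 0.64), log2 fold changes and adjusted p from edgeR. Sbds, which frees the new large subunit from Eif6, was thus on the positive side, with 53.6, 46.9 and 66.2 CPM in DKO and 45.9, 46.4 and 48.4 CPM in WT.

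RNA polymerase I genes, which make ribosomal RNA, and regulators of ribosomal protein output showed the same order. Of 15 polymerase I genes 3 were positive and 12 negative (median log2 fold change -0.13), with library medians of 0.2, -0.27 and -0.41. Of 15 regulators 2 were positive and 13 negative (median -0.17), with library medians of 0.14, -0.21 and -0.44. Eif4ebp1, the translation repressor that mTOR switches off, had 76.8, 71.5 and 70.0 CPM in DKO and 58.5, 55.0 and 62.3 CPM in WT (0.31, SE 0.09, adjusted p 0.428, edgeR). Mtor itself had 118, 132 and 106 CPM in DKO and 147, 152 and 132 CPM in WT (-0.28, adjusted p 0.543, edgeR). Myc, an activator of ribosome synthesis, had 85.0, 31.3 and 15.6 CPM in DKO and 53.7, 56.0 and 56.2 CPM in WT, so that its WT libraries lay between library 1 and library 2 labelled DKO. No gene of either list passed by edgeR, DESeq2 or limma-voom. At an unadjusted p under 0.05 by edgeR there were 0 polymerase I genes, and Eif4ebp1 and Mtor were the 2 regulators. Over all genes, 5.55% were higher and 3.54% lower at that p by edgeR.

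**Figure D5:**
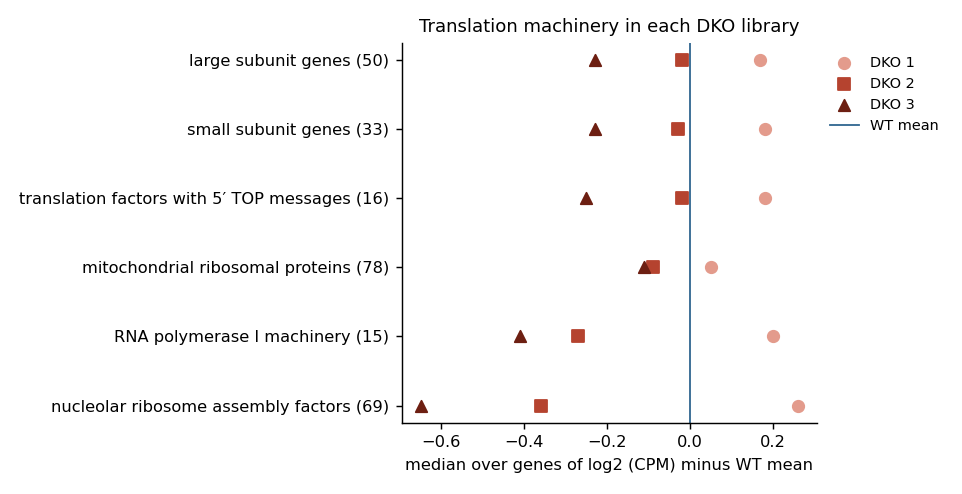
Median over the genes of each list of log2 CPM minus the WT mean, in each library labelled DKO (circle, square and triangle for libraries 1, 2 and 3), with the number of tested genes in brackets and the WT mean as a line at 0. Large and small subunit genes lie at 0.17 and 0.18, -0.02 and -0.03, and -0.23 and -0.23; nucleolar factors lie at 0.26, -0.36 and -0.65.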

How the data were processed

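The deposited values are raw counts of reads, 1 row per gene symbol, for 6 libraries, and they entered every test without change. The submitters' processing notes name mm10, SAMtools and DESeq2, with neither version nor role. The column headers name BAM files called subset, and what was subset is not stated. Reads were single-end of 50 bases, per the labels' protocols. For the aligner, counter, annotation and strand, the answer is not given in the sources used here, so genes that share sequence, overlap or lie antisense cannot be told apart with certainty. Each column matched 1 sample by name, and 0 rows had no gene name. Of 25239 rows, 5183 had no count. Across libraries 3 counts equalled 0.0529 to 0.15 CPM, a floor for counting error alone.

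Groups were compared with edgeR 4.0.16 (R 4.3.3): quasi-likelihood F test, TMM scaling, filterByExpr by group, robust shrinkage, group as the only term, and Benjamini-Hochberg adjustment over all 14002 genes tested at a threshold of 0.05. SE is the size of the log2 fold change divided by the root of F. Log2 levels per library used a prior count of 2. Fold changes are DKO minus WT. Alternatives were DESeq2 1.42.0, limma-voom (limma 3.58.1), other scalings and filters, and each library left out.

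Members and lists were chosen with earlier results of these data known. The naming rule takes Rpl21, called members, up to 6 members each way whose groups do not overlap, the 5 highest and 5 lowest members per kb, paralog pairs, 9 members with known roles (Rplp0, Rplp1, Rplp2, Rpsa, Rps6, Rpl5, Rpl11, Rps19 and Rpl35a), 3 genes by p of each list, the tested genes beside Rpl21, and Rpl21-ps rows. Genes named beside it, such as Rps12, Npm1, Myc, Eef1a1, Rps21 and the rows for copies, were chosen after their values were seen. Some genes are not reported here. Coding sequences came from GENCODE M21 and coordinates from RefSeq, both of GRCm38. All 86 members had coordinates. A stretch counted as shared where another annotated gene held the same 50 bases in a transcript.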

Additional observations from a re-analysis of the deposited data

How the results depend on the processing

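Over all genes, edgeR called 2 genes higher in DKO and 3 lower, and these counts depended on the method. DESeq2 called 172 higher and 116 lower. A single gene was higher with limma-voom, with library totals alone and at a threshold of 0.01 (1 each), where the lower count was 0 at 0.01; with no low-count filter 5 were lower. Leaving out single libraries gave 0 to 433 higher and 0 to 201 lower, with 433 and 201 both without library 1 labelled DKO and 6 lower without library 3. Among ribosomal protein genes 1 was called higher, 3 by DESeq2 (Rpl10l, Rpl21 and Rps2), and 0 to 2 with single libraries left out: 0 without WT library 2 (with 630 of all genes at an unadjusted p under 0.05, edgeR), and 2 without library 1 labelled DKO (Rpl10l and Rpl21). The log2 fold change of Rpl21 was 4.97 to 5.28 in those fits. The share of counts differed by -0.0419 percentage points, DKO minus WT, and by -0.396 to 0.299 with single libraries left out. The log2 ratio of Rpl22l1 to Rpl22 differed by -0.18 to 0.03 in such sets of libraries, and reversed to 0.03 without library 3 labelled DKO. Scaling choices kept the median of ribosomal protein genes between -0.01 and 0. No agreement by replicate number was seen: same-numbered libraries had correlations of deviations of -0.37, -0.28 and -0.19, and other pairs -0.07 to 0.26. Deviations within a group are tied to each other, so these values do not settle whether same-numbered libraries were handled together. With a replicate block 1 gene was higher (Rpl21) and 0 lower, and 762 had an unadjusted p under 0.05 by edgeR. The causes were not tested. Few counts limit what can be read from Rpl30, Rpl34, Rpl10l, Rpl39l, Rpl3l and Rps27, and Rpl26 had none.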

Other observations

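Mitochondrial ribosomal proteins build the separate ribosome of that organelle. Their library medians were closer to 0 than the cytosolic ones in libraries 1 and 3 labelled DKO. In library 2 they were farther from 0 (-0.09 against -0.02). This comparison has no test. All 78 in the table were tested, 30 positive and 48 negative, with a median log2 fold change of -0.05. Medians against the WT mean were 0.05, -0.09 and -0.11 in libraries 1, 2 and 3 labelled DKO. By edgeR 0 passed. At an unadjusted p under 0.05, 1 was higher and 3 lower, beside 5.55% and 3.54% of all genes. DESeq2 called 1 lower, beside 0.829% of all genes, and limma-voom 0. The groups did not overlap in 2 that were higher and 8 that were lower, beside 7.94% and 7.61% of all genes. Mrps14 had 33.0, 34.7 and 35.5 CPM in DKO and 44.1, 43.7 and 43.9 CPM in WT (log2 fold change -0.35, SE 0.09, adjusted p 0.337, edgeR). Mrpl15 had 100, 95.6 and 101 CPM in DKO and 81.5, 80.8 and 84.4 CPM in WT (0.27, SE 0.08, adjusted p 0.413, edgeR), and Mrpl18 had 85.6, 78.1 and 76.9 CPM in DKO and 94.7, 96.3 and 98.5 CPM in WT (-0.27, SE 0.08, adjusted p 0.448, edgeR). In each of these the groups did not overlap.

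Hosts of small nucleolar RNAs, whose introns release guides for modifying ribosomal RNA, had fold changes of both signs. Gas5, which also has a TOP tract, had 39.8, 33.7 and 34.5 CPM in DKO and 59.9, 54.1 and 53.8 CPM in WT (log2 fold change -0.64, SE 0.11, adjusted p 0.183, edgeR). Snhg6 had 11.4, 5.17 and 9.7 CPM in DKO and 4.46, 3.6 and 4.72 CPM in WT (1.04, SE 0.32, adjusted p 0.432, edgeR). Snhg1 had 20, 17.1 and 15.9 CPM in DKO and 18.7, 18.6 and 23.8 CPM in WT (-0.2, adjusted p 0.693, edgeR). Of 9 hosts 3 were positive and 6 negative. DESeq2 called 1 lower, beside 0.829% of all genes, and edgeR and limma-voom called 0. Of 5 genes of the checkpoint that ties ribosome assembly to p53, 4 were positive. Cdkn1a, the cell cycle inhibitor that p53 induces, had 16.1, 22.3 and 24.5 CPM in DKO and 13.6, 13.7 and 14.9 CPM in WT (0.58, SE 0.18, adjusted p 0.432, edgeR). Mdm2 had 64.8, 58.9 and 76.3 CPM in DKO and 59.2, 56.0 and 58.5 CPM in WT (0.2, adjusted p 0.637, edgeR). Trp53 had 112, 91.5 and 76.8 CPM in DKO and 96.9, 96.8 and 106 CPM in WT (-0.1, adjusted p 0.822, edgeR).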
